A study of Caenorhabditis elegans with 2 samples.

Results

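The 156 *col* genes of *Caenorhabditis elegans*, numbered from *col-2* to *col-187*, were examined for LIN-39 ChIP-seq regions at their promoters. They were taken from the 19973 annotated protein-coding genes as all those whose symbol is col- followed by a number, and the other 19817 protein-coding genes served as the comparison. LIN-39, a Hox transcription factor of the mid-body, is known from the vulval precursor cells, which are epidermal, and from neurons and muscle precursors of the same body region. Both samples were whole L4 larvae of strain OP18, of mixed sex, which carry unc-119(ed3) III and the transgene wgIs18, which makes LIN-39 tagged with eGFP, a green fluorescent protein. They were 2 biological replicates of 1 group, and the labels name 1 strain donor for both and no untagged or other-stage group. The tagged protein came from a transgene and the chromatin from all tissues together, so a region in few cells and a weak region in many cells cannot be told apart.

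Cuticle collagens are the main structural proteins of the worm's exoskeleton. The epidermis makes a fresh set for each moult, and individual genes are switched on in turn within a moulting cycle or at one stage only. A typical cuticle collagen is a short secreted protein with a central Gly-X-Y triple helix that is interrupted a few times, and its chains are hydroxylated, trimerised, cleaved and cross-linked on the way to the cuticle. L4 larvae make the adult cuticle under the larval one.

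Regions of the pooled LIN-39 list, which by its label holds peaks and background, lay at *col* promoters about as often as at other promoters. No *col* promoter held a peak that passed the authors' threshold, which 0.454% of other promoters held. A promoter was the stretch from 1000 bp upstream to 200 bp downstream of the gene's 5' end, and it held a region when the region's summit, its point of highest signal, fell inside. In the pooled list 54 of 156 *col* genes (34.6%, 95% Wilson interval 27.6% to 42.4%) held a region, against 33.7% of other genes. The highest were *col-163*, *col-176* and *col-54*, and 19 genes (12.2%) held a region at the same place in both replicates, against 10.6% of other genes. Inside their own bodies *col* genes carried fewer pooled summits per length than other genes did, 17.05 against 28.6 per 100 kb. This was not particular to them, since other genes of *col*-like GC content had 11.3. Other genes with collagen repeats had 30.8.

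Sequences are shown for 6 genes whose promoters illustrate these results, all from the WBcel235 (ce11) reference and on the strand of the gene, 5' to 3'. The first 3 are the 151 bases centred on the pooled summits of *col-163* (chrV:20600088-20600238), *col-176* (chrX:10076794-10076944) and *col-101* (chrIV:326925-327075), which rank among the 4 highest of the family. Capitals mark matches to 5 short patterns described with the sequence results: TAATTA, a homeodomain core, in *col-163*, and TGATAA on the other strand, a GATA factor site, in *col-176*. The *col-101* stretch held none of the 5.
col-163 summit: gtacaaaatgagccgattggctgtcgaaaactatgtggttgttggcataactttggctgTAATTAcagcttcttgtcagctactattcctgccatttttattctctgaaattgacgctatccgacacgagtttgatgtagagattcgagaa
col-176 summit: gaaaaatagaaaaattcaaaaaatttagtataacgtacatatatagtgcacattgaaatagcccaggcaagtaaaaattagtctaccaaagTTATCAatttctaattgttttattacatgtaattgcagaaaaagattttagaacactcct
col-101 summit: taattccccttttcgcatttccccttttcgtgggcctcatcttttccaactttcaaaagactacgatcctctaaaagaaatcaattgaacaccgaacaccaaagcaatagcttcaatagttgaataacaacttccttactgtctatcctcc
The next 3 are the 200 bases just upstream of the 5' ends of *col-19* (chrX:421507-421706), *col-12* (chrV:10425199-10425398) and *col-17* (chrII:4867577-4867776). These are genes of known stage or arrangement: *col-19* held a modest region in both replicates, and *col-12* and *col-17* held none in any list. Capitals mark GAGAGA and TGATNNAT in *col-19*, and TGATNNAT and TGATAA in *col-17*, on either strand.
col-19 upstream: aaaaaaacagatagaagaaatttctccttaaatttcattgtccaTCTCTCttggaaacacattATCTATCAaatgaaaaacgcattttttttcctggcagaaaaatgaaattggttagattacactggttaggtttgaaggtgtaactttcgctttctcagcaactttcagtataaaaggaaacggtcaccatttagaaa
col-12 upstream: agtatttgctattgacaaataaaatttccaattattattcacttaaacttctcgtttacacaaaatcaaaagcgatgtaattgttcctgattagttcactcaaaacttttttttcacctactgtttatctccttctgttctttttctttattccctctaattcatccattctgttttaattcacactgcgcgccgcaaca
col-17 upstream: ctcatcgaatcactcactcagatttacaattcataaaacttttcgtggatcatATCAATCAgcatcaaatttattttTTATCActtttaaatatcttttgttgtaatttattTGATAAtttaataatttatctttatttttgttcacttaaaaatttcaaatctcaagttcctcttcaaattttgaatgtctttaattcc

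The authors deposited 3 lists of 30000 regions on ce11, one for each replicate and one pooled over both, and a list of 163 peaks that passed their threshold, which were the 163 highest pooled regions. Regions were 344 or 350 bp wide, and those of the pooled list covered 10.15% of the genome. By its deposited label the pooled list holds peaks and background, and a region of low rank is not taken here as a binding site. The whole genome held 29.9 pooled summits per 100 kb. The kilobase upstream held 33.97 in *col* genes and 32.1 in other genes. The files hold no read counts, and the sequencing depth is therefore unknown. A region's value is its deposited signal, which is given as a rank within its own list (1 is the highest of 30000), as a percentile, or divided by the median of that list (relative signal). The pooled list was made from the same reads as the replicate lists and both replicates shared a control, so the 3 lists are not independent of each other. Intervals on shares of genes cover counting error over genes, which are not replicates of the experiment, and no test between groups was possible with 1 group.

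The share of *col* genes with a region was close to that of other genes in each replicate. In replicate 1 there were 53 (33.97%, 27.0% to 41.7%), against 33.1% of other genes, and in replicate 2 there were 56 (35.9%, 28.8% to 43.7%), against 33.7%. The replicates often marked different genes, inside the *col* family and outside it. A region in both, at any place in the promoter, was held by 24 *col* genes (15.4%, against 15.5% of other genes). In replicate 1 alone 29 held one, and in replicate 2 alone 32. Since the shares in each replicate and in both were close to those of other genes, this mismatch is not particular to the family. A pair of regions, 1 from each replicate, counted as the same place when the summits lay within 200 bp and each was the nearest to the other, and 19 *col* genes held such a pair (12.2%, 7.94% to 18.2%), against 10.6% of other genes. Of the 54 genes in the pooled list, 6 held no region in either replicate. The share over other genes is not given here, so this count describes the members only. Over the 3 lists, 21 *col* genes held a region in all of them (13.5%, against 13.7% of other genes) and 65 in none (41.7%, against 46.4%).

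At the upper end of the lists the *col* counts were small and near the background. None of the 156 held a thresholded peak, which allows a share of up to 1.92%, while 90 other genes did (0.454%), a share that lies under that limit. The 1000 highest pooled regions reached 3 *col* promoters (1.92%, 0.656% to 5.50%), those of *col-163*, *col-176* and *col-54*, against 1.7% of other genes. The 1000 highest of replicate 1 reached 1, that of *col-101* (0.641%, against 1.48%), and the 1000 highest of replicate 2 reached 0 (against 1.76%). The thresholded peak nearest to any *col* 5' end lay on chromosome V from 13313107 to 13313450, 4732 bp downstream of the 5' end of *col-161*. It was nearer, at 294 bp, to the 5' end of *C50B6.3*. Within 10000 bp of a thresholded peak lay 1 *col* gene (0.641%) and 3.13% of other genes, though the median distance to one was shorter for *col* genes, at 155922 bp against 271459 bp.

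**Figure D1:**
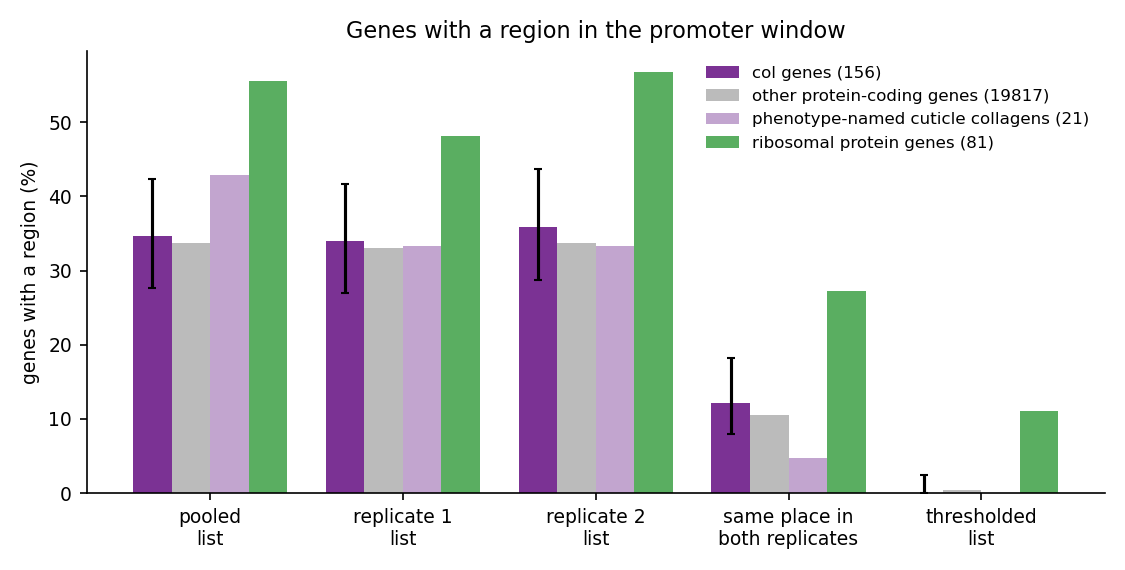
Bars give the percentage of genes with a region summit in the promoter window, on the vertical axis, for the pooled list, each replicate list, same-place pairs and the thresholded list, for the groups of genes in the legend. Error bars on the *col* bars are 95% Wilson intervals, and the *col* share is 34.6%, 33.97% and 35.9% in the first 3 lists and 0 among thresholded peaks, where 11.1% of ribosomal protein genes have one.

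*col-163* held the highest pooled *col* region. It ranked 579 of 30000 in the pooled list, 2090 in replicate 1 and 3992 in replicate 2, with relative signals of 1.82, 1.555 and 1.38. The lowest thresholded peak had a pooled relative signal of 2.34, so even this region lay below it (signal 30.3 against 39.2). Its summits lay 68, 82 and 71 bp downstream of the 5' end, inside a coding exon, on chromosome V from 20599991 to 20600334 (gene at 20600095 to 20602540, plus strand). *col-163* was also an unusual member in sequence. It encodes the longest product of the family, 740 residues against a median of 304, and only 22.3% of them lay in Gly-X-Y runs, against a median of 51.0%.

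*col-176* ranked 810 in the pooled list, 1017 in replicate 1 and 2784 in replicate 2. Its relative signals were 1.73, 1.74 and 1.48, so both replicates were high, with a mean of 1.61 ± 0.180 (SD, n = 2). The summits lay 728, 726 and 708 bp upstream, between protein-coding genes on chromosome X from 10076697 to 10077040. *col-54* ranked 872, 2266 and 2372, with a replicate mean of 1.53 ± 0.00550 (SD, n = 2), which made it the most even pair of the highest members. Its pooled summit lay 128 bp downstream, in its own coding sequence.

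*col-101* differed between the replicates. It ranked 512 in replicate 1, the highest *col* region there, with a relative signal of 1.91, and 15092 in replicate 2, with 0.998, near that list's median. The pooled rank was 1455, and the summits lay 20, 12 and 20 bp downstream of the 5' end, in sequence that the annotation also gives to the overlapping gene *drl-1*. *col-42* was uneven in the same direction, with ranks of 3721, 2031 and 9543 in the pooled, replicate 1 and replicate 2 lists and a summit 122 bp upstream. *col-69* ranked 2392, 8562 and 2667, but its replicate 1 summit lay 23 bp downstream and the other 2 lay 177 and 178 bp upstream, so the replicates did not mark the same place.

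The other 6 of the 12 highest *col* genes of the pooled list had pooled ranks from 4509 to 6365, and at 4 of them, *col-7*, *col-36*, *col-38* and *col-113*, the summit lay inside or nearest to a neighbouring gene. *col-7* ranked 4509, 7624 and 9980, at a summit 278 bp upstream that lies in and nearest to the neighbouring gene *C15A11.4*. *col-36* ranked 4602, 9776 and 7915, and its summit 448 bp upstream fell in a coding exon of *dyf-13*. *col-38* ranked 6337, 23699 and 6791, and its summit 530 bp upstream lay between genes and nearer to the 5' end of the ribosomal protein gene *rpl-5*. *col-113* ranked 4788, 17936 and 6372 at 686 bp upstream, nearest to *C34D4.3*, and *col-61* ranked 5992, 16262 and 5827. The replicate 2 summit of *col-61* lay 693 bp upstream, away from the other pair at 948 and 966 bp, and its region at the same place ranked 10654. *col-178* ranked 6365 in the pooled list and 4880 in replicate 2 and held no region in replicate 1.

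Several members high in 1 replicate had no region in the other. *col-90* ranked 1837 in replicate 1, 6532 in the pooled list, and held no region in replicate 2. Also without a region in replicate 2 were *col-37* at rank 2274, *col-145* at 2485, *col-174* at 3367 and *col-9* at 4033 in replicate 1, the first pair of them also missing from the pooled list. *col-65* ranked 2770 in replicate 2, 14675 in the pooled list, and held no region in replicate 1, and the same held for *col-178*, above, and for *col-44*, at 4978 in replicate 2. The pair at *col-135* stood near the middle of both lists, at ranks 16926 and 15400, and its pooled rank was lower still, at 26877.

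**Figure D2:**
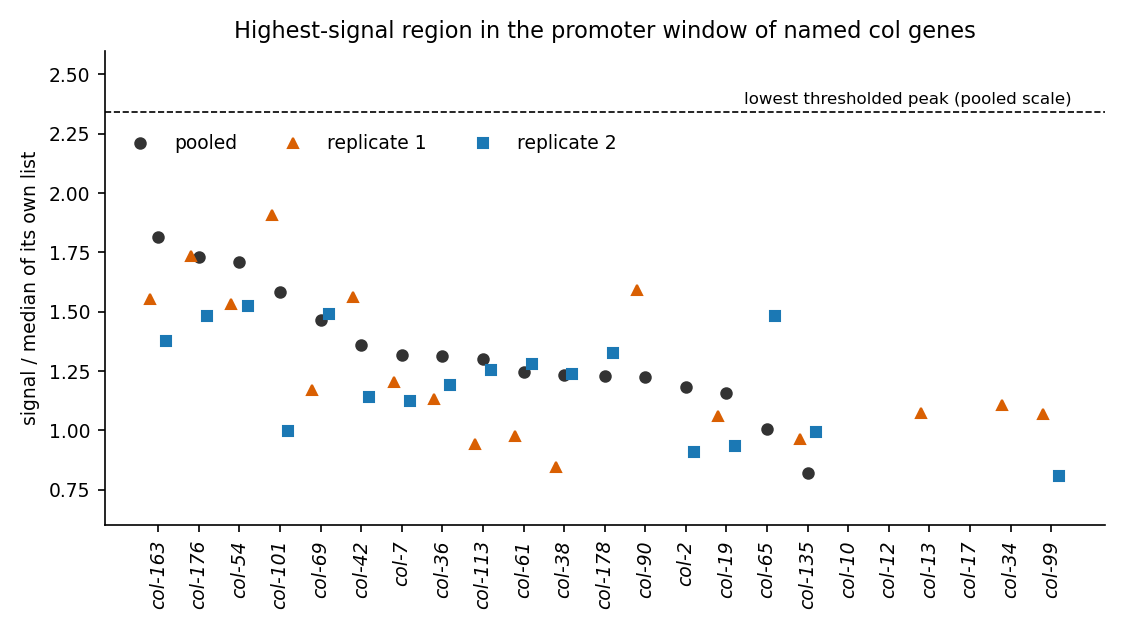
Points give the relative signal of the highest region in the promoter of each named *col* gene, on the vertical axis, for the pooled list (circles), replicate 1 (triangles) and replicate 2 (squares), with genes ordered by pooled rank and no point where no region was found. The points of *col-163*, *col-176* and *col-54* are the highest pooled ones, between 1.71 and 1.82, and all points lie under the dashed line at 2.34, the lowest thresholded peak on the pooled scale.

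The 19 same-place genes were *col-7*, *col-19*, *col-36*, *col-38*, *col-40*, *col-42*, *col-47*, *col-54*, *col-61*, *col-76*, *col-80*, *col-101*, *col-113*, *col-116*, *col-135*, *col-163*, *col-171*, *col-176* and *col-187*. In each pair the lower of both percentiles was taken, and its median was 40.2 over these genes and 38.9 over the other genes with a pair. It exceeded 90 in 2 of the 19, *col-54* and *col-176* (10.5%), against 6.71% of the other genes.

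**Figure D3:**
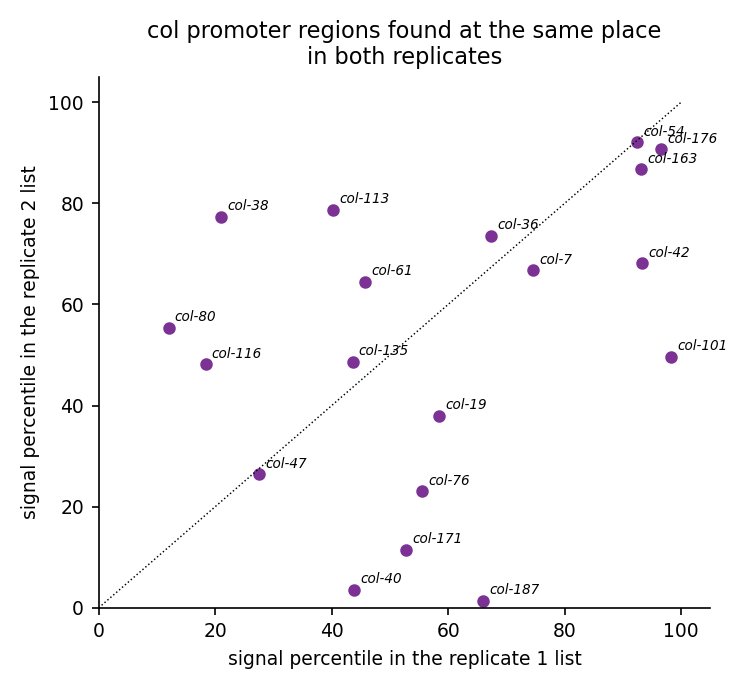
Each point is 1 of the 19 *col* genes with a same-place region, with its signal percentile in replicate 1 on the horizontal axis and in replicate 2 on the vertical axis, and the dotted line marks equal percentiles. *col-54*, *col-176* and *col-163* lie high in both replicates, and *col-101* and *col-38* lie far from the line.

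By rank, the *col* regions sat near the middle of each list. Among genes with a region, the median percentile of the highest one was 50.35 for *col* genes and 53.6 for other genes in the pooled list. It was 51.7 against 53.6 in replicate 1 and 48.6 against 54.4 in replicate 2. Over the replicates the means were 50.1 ± 2.20 and 54.0 ± 0.594 (SD, n = 2 each), a difference that was not tested. With a promoter of only 500 bp upstream the order turned, to 55.0 for *col* genes and 51.8 for other genes. With summits given only to the nearest 5' end the gap was wider, at 46.4 against 53.8. The highest relative signal of any *col* region was 1.82 in the pooled list, 1.91 in replicate 1 and 1.53 in replicate 2, whereas other genes reached 8.515, 5.01 and 10.2.

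Of the 8 members of known stage, tissue or structure, *col-19* and *col-2* held a pooled region, and 3 held none in any list. *col-19*, an adult-specific collagen that the heterochronic factor LIN-29 activates, ranked 8355 in the pooled list, 12494 in replicate 1 and 18591 in replicate 2. Its relative signals were 1.16, 1.06 and 0.933, so the pair averaged 0.996 ± 0.0892 (SD, n = 2), at the list medians. The pooled summit lay 51 bp upstream of the 5' end, within the region on chromosome X from 421484 to 421827. *col-17*, a larval collagen that is shut off at the adult switch, held no region in any of the 3 lists.

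*col-12*, and *col-10*, also held no region in any list, while *col-13*, the neighbour of *col-12* with a closely similar product, held one in replicate 1 alone, at rank 11974. *col-34*, the gene of the ram-4 mutants with abnormal male tail rays, likewise held one in replicate 1 alone, at rank 10685. *col-2*, a dauer collagen, ranked 7730 in the pooled list and 19875 in replicate 2 and held none in replicate 1. Its pooled summit, 216 bp upstream, also lay in the promoter of *ndc-80*, a kinetochore gene. *col-99*, a transmembrane collagen, ranked 12068 in replicate 1 and 26424 in replicate 2, at separate places 365 bp upstream and 5 bp downstream, and held none in the pooled list.

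Of the 54 highest pooled regions, 1 for each *col* gene that held any, 47 lay upstream of the 5' end and 7 downstream or at it. *col-159* and *col-160* share a region, which was counted for both, so 53 of these regions are distinct. The median lay 434 bp upstream. A promoter reached 1000 bp upstream and 200 bp downstream, so most summits fall upstream by its definition. Of the 54, 13 lay within the last 250 bp before the gene. All pooled summits in that stretch came to 8.97 per 100 *col* genes and 8.50 per 100 other genes. By annotation 32 of the 54 summits lay between protein-coding genes and 15 inside another protein-coding gene. A further 4 lay in a coding exon of the *col* gene itself and 3 in its other parts. In 11 of the 54 the summit also lay in another gene's promoter, and 46 were nearest to the *col* gene's own 5' end. These counts over the 54 have no counterpart over other genes here, so they describe the members only. *col* promoters were somewhat more isolated than others, with 111 that overlapped no other promoter (71.2%, against 66.2%).

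The family is spread over all chromosomes, with 21 genes on I, 24 on II, 12 on III, 41 on IV, 31 on V and 27 on X. On II the share with a region was above that of other genes in all 3 lists, at 12 of 24 genes, 37.5% and 45.8% against 32.4%, 30.9% and 33.0% (pooled, replicate 1, replicate 2). On I the replicates went opposite ways, with 4 of 21 genes against 30.7% in replicate 1 and 57.1% against 31.7% in replicate 2. On IV, which holds the most members, the pooled share was 24.4% against 32.4%, whereas both replicates were higher than other genes, at 34.1% and 36.6% against 31.2% and 31.7%. With 12 to 41 genes each, the pooled intervals all held the share of the other genes on that chromosome. No intervals were made for the replicate shares, so this does not cover the replicate 2 value on I.

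Downstream of the 5' end the *col* genes showed a gap in regions. From 500 to 750 bp downstream there were 3.205 pooled summits per 100 *col* genes against 7.19 per 100 other genes, and from 750 to 1000 bp there were 1.92 against 7.40. Single bins elsewhere went either way, with 10.9 against 7.62 from 750 to 500 bp upstream, 5.77 against 7.39 from 1000 to 750 bp upstream and 12.2 against 7.645 from 1750 to 2000 bp downstream. A *col* gene is short, with a median length of 1220 bp against 2038 bp, so this gap falls inside its body.

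**Figure D4:**
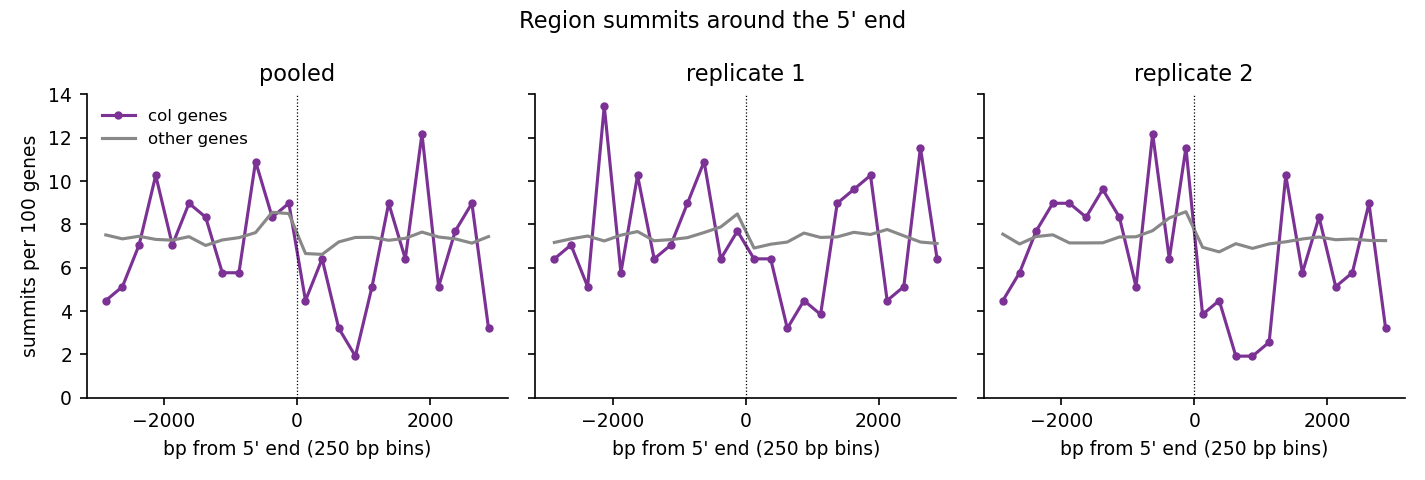
Lines give region summits per 100 genes, on the vertical axis, in 250 bp bins by distance from the 5' end in bp, on the horizontal axis, for *col* genes (purple) and other genes (grey), with 1 panel for each list. In all 3 panels the *col* line falls below the grey line between 500 and 1000 bp downstream.

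Across whole gene bodies, from annotated start to end, *col* genes held 40 pooled summits in 234.6 kb. That is 17.05 per 100 kb (exact Poisson 95% interval 12.2 to 23.2), against 28.6 in other genes (28.2 to 29.0) and 29.9 over the genome. The summit at rank 28794 lay in the overlapping bodies of *col-159* and *col-160* and was counted for both, which the interval does not allow for. Replicate 1 gave 20.9 (15.4 to 27.6) against 29.4 and replicate 2 gave 12.8 (8.63 to 18.3) against 28.4, so the direction was the same in both. The means were 16.8 ± 5.73 and 28.9 ± 0.727 (SD, n = 2 each). The 34 *col* genes with a summit inside made up 21.8% of the family. The share was 48.3% over other genes, which are longer, and 32.4% over other genes of *col*-like length. Of the 1094 other genes of *col*-like GC content, 131 had a summit inside, a smaller share than in the *col* family. The *col* share was therefore below that of other genes and of length-matched genes, but above that of GC-matched genes. Among the 40 summits the highest were at *col-163*, *col-54* and *col-101*, described above, and next at *col-152* (rank 1943) and *col-172* (rank 2506).

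The kilobase upstream held 33.97 pooled summits per 100 kb in *col* genes and 32.1 in other genes. The kilobase downstream held 36.5 against 32.6 in the pooled list, 39.7 against 31.7 in replicate 1 and 29.5 against 32.5 in replicate 2. The bodies were also rich in G and C, with a median of 49.1% against 36.4%. Other genes of a GC content between the *col* quartiles (44.4% to 53.5%, 1094 genes) had 11.3 pooled summits per 100 kb (9.63 to 13.2). Other genes of a length between the *col* quartiles (1056 to 1590 bp, 3444 genes) had 27.8 (26.3 to 29.3), and the 184 genes within both ranges had 11.7 (7.75 to 16.85). The 81 ribosomal protein genes, with a median GC content of 44.8%, had 9.315 (3.42 to 20.3). The 66 other genes with collagen repeats, with a median of 45.2%, had 30.8 (20.3 to 44.8) in the pooled list, 27.4 in replicate 1 and 20.5 in replicate 2. Within the family the 34 bodies with a summit had a median GC content of 44.7% and a median length of 1337 bp. The 122 without one had 50.8% and 1168 bp. Fewer than 90% of 31-base words occurred once in the genome in 32.9% of the GC-matched bodies and 28.2% of *col* bodies. That share was 15.7% over all other genes, 6.06% over the genes with collagen repeats and 4.94% over ribosomal protein genes. Whether GC content, length or repeated sequence accounts for the lower density was not tested.

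**Figure D5:**
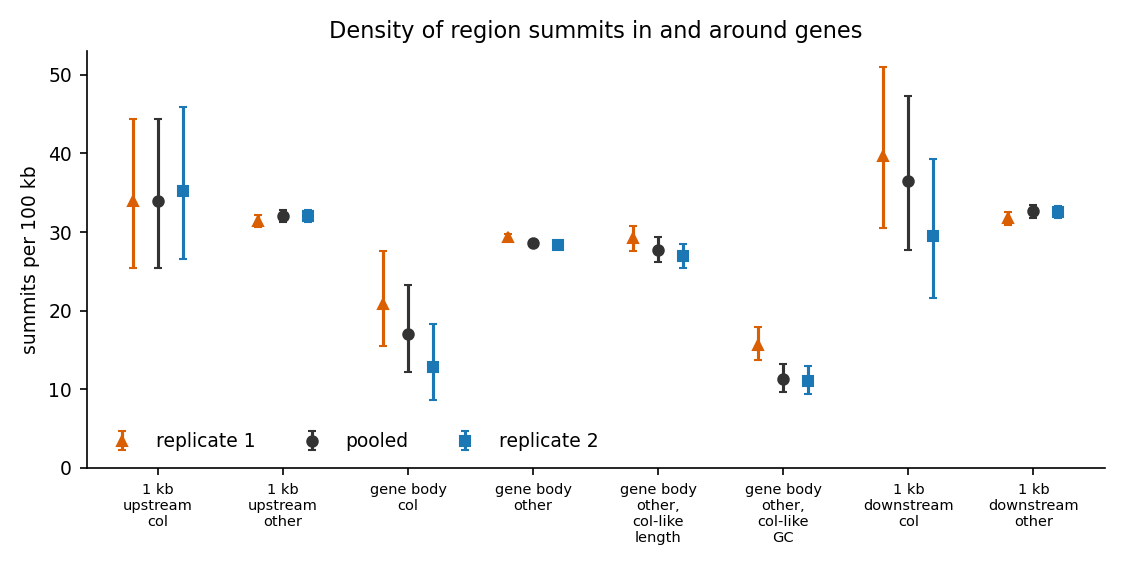
Points give region summits per 100 kb, on the vertical axis, for the kilobase upstream, the gene body and the kilobase downstream of *col* and other genes, and for the bodies of other genes of *col*-like length or GC content, in replicate 1 (triangles), the pooled list (circles) and replicate 2 (squares). Bars are exact Poisson 95% intervals. The *col* bodies, at 12.8 to 20.9, lie under the bodies of all other genes, at 28.4 to 29.4. Bodies of other genes of *col*-like GC content lie at 11.1 to 15.7.

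The 5 sequence patterns were GAGAGA, the GAGA repeat, TAATTA, TGATNNAT, the core of a composite Hox and PBC site, TGATAA and CAGCTG, an E-box. Each was searched on both strands, and TGATAA and TGATNNAT can overlap. In the promoters GAGAGA stood in 57.7% of *col* genes and 50.9% of other genes. TAATTA stood in 46.8% and 47.4%, TGATNNAT in 64.1% and 64.0%, TGATAA in 76.9% and 71.9%, and CAGCTG in 25 of the 156 *col* promoters and 20.9%. In the core promoter, the 301 bases from 250 before to 50 after the 5' end, CAGCTG stood in 1.92% of *col* genes and 5.58% of other genes, and GAGAGA in 26.9% and 21.8%. Core promoters of *col* genes had a median GC content of 37.9%, against 34.2%, and whether this bears on the pattern shares was not tested.

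Within 100 bp of a summit the patterns were about as frequent at *col* regions as at other promoter regions for 2 of them. Among 53 distinct *col* summits, GAGAGA stood in 11.3% against 11.7% of 6044 others, and TGATNNAT in 9 of 53 against 16.6%. TAATTA stood in 5.66% against 11.2% and TGATAA in 28.3% (17.97% to 41.6%) against 20.4%. CAGCTG stood in 1.89% against 3.77%. The 163 thresholded summits had GAGAGA in 36.2%, against 10.4% of the remaining pooled summits, and TGATAA in 9.2% against 19.3%. A match is a string of letters and not a site of binding.

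The summit of *col-42* lay in telomere-type repeats, a feature chosen after its sequence was seen. The 151 bases around it, chrV:18638287-18638437, hold 7 copies of GCCTAA, shown in capitals, some of them in tandem.
col-42 summit: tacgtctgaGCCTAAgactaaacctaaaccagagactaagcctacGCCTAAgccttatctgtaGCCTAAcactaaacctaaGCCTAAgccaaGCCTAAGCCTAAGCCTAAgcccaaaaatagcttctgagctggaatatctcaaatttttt
Tandem copies stood at 1 of the 53 *col* summits (1.89%), at 0.165% of other promoter summits, at 0.217% of all pooled summits and at none of the 163 thresholded ones.

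By the annotated coding sequences 153 of the 156 genes encode at least 30% of residues in Gly-X-Y runs of 3 or more triplets. The others were *col-163*, *col-87* (25.2%) and *col-17*. For *col-17* the Ensembl model gave 0 and the RefSeq model 54.1%, since the models read different frames. The median was 51.4% in genes with a pooled region and 51.0% in genes without one. A further 66 protein-coding genes that are not named *col* had that share, and 26 of them held a pooled region (39.4%, against 33.7% of all genes outside the *col* family) and 7 a same-place pair (10.6%, against 10.6%).

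Near-identical copies limit where reads can be placed. In 19 *col* promoters (12.2%) fewer than 90% of 31-base words occur once in the genome, against 14.6% of other promoters, and 3 of the 19 held a pooled region. Among the remaining promoters the share with a region was 37.2% for *col* genes and 36.5% for other genes. The lowest share of words found once, 46.6%, was that of *col-3* and *col-117*, whose promoters overlap. Among promoters that do not overlap, *col-168* and *col-170* shared the most 31-base words, 139, and neither held a pooled region. In the gene bodies 44 *col* genes (28.2%) fell under that mark, against 15.7%, and bodies at or over it had 20.4 pooled summits per 100 kb against 31.55 in other genes.

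Genes of 4 other lists, of collagens, their processing enzymes, and epidermal and heterochronic regulators, held no thresholded peak either. Outside the *col* family 0.454% of genes held one, and 33.7% held a pooled region. Of 21 cuticle collagens with phenotype names, 9 held a pooled region (42.9%). Counted separately, 7 held one in replicate 1 and 7 in replicate 2 (33.3% each, against 33.1% and 33.7% outside the *col* family). Of these 21 collagens, 1 held a same-place pair (4.76%, against 10.6%). Their highest were *sqt-1* at rank 5200, *bli-2* at 5974 and *dpy-7* at 11270, collagens whose mutants are squat, blistered and dumpy. In replicates 1 and 2 *sqt-1* ranked 10063 and 9043, and *bli-2* ranked 28329 and 13175. *dpy-7* ranked 12027 in replicate 1 and held no region in replicate 2. Of 14 genes for collagen processing enzymes and their partners, 4 held one (28.6%), led by the prolyl 4-hydroxylase subunit *phy-2* at rank 5442, with 5938 and 5981 in the replicates. *doxa-1*, a maturation factor for the dual oxidase, ranked 10639, with 20113 in replicate 1 and 1146 in replicate 2. *bli-3*, that oxidase, ranked 15233, with 22593 in replicate 1 and 989 in replicate 2. Of 3 basement membrane collagens only *let-2*, a type IV collagen chain, held one, at rank 13848. It ranked 1565 in replicate 1 and 23118 in replicate 2. Of 16 epidermal and heterochronic regulators 7 held one (43.8%). Highest were the GATA factor *elt-6* at 5395, the Grainyhead factor *grh-1* at 6242 and the RNA-binding protein gene *lin-28* at 6477. In replicates 1 and 2 *elt-6* ranked 27040 and 9131, and *grh-1* ranked 3434 and 15831. *lin-28* held no region in replicate 1 and ranked 507 in replicate 2.

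By comparison, of 81 ribosomal protein genes 45 held a pooled region (55.6%), 22 a same-place pair (27.2%) and 9 a thresholded peak (11.1%). Their highest was *rpl-3*, at rank 9 in the pooled list, 10 in replicate 1 and 9 in replicate 2.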

How the data were processed

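ChIP-seq regions of 2 biological replicates, with the replicate numbers from the labels and a library size range of 150 to 350 bp, were used as the authors deposited them. Per the labels the data are on builds ce10 and ce11, and per the deposited descriptions the pooled list came from both replicates with 1 control and the thresholded list from all 3. The aligner and caller were not given in the sources used here. Signal as deposited is the caller's enrichment over control, and depth is unknown. The ce10 lists were not used, since coordinates were not converted.

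Positions are on ce11 (WBcel235), 1-based, with Ensembl release 115 genes. No region ran past a chromosome end. Summits were assigned to every promoter that held them. Gly-X-Y shares came from translated coding sequence, and uniqueness from 31-base words of the genome. Wilson and exact Poisson intervals are at 95% and cover counting error only, and the limit for a count of 0 is 3 counts.

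Named are the 12 highest pooled and 5 highest *col* genes of each replicate, the 10 best same-place genes, 8 of known stage, tissue or structure, and up to 3 of each other list, with any further name picked after its value was seen. The members and lists were chosen with earlier results of these data known. Alternatives varied the promoter, 5' end, assignment, list, distance and number of top regions. Window assignment and pairing recovered planted regions in 20 of 20 simulated runs. Calculations used Python 3.11.15, pandas 2.3.3, scipy 1.17.1, matplotlib 3.10.9 and numpy 2.4.6.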

Additional observations from a re-analysis of the deposited data

How the results depend on the processing

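The share of *col* genes with a pooled region, 34.6%, moved with the size of the promoter and of the list, as did that of other genes. It was 21.8% with 500 bp upstream (other genes 21.6%), 53.2% with 2000 bp (51.4%), 5.77% with the 5000 highest regions (6.78%) and 0.0% with the thresholded list (0.454%). The median percentile, 50.35 (other genes 53.6), was 55.0 with 500 bp upstream (51.8) and 54.6 with 2000 bp (56.9). It was 46.4 with only the nearest 5' end (53.8) and 46.3 with promoters that overlap no other (53.8). The same-place count, 19 of 156 (12.2%, against 10.6% of other genes), was 11 of 156 with 500 bp (6.38% of other genes). With 2000 bp it was 36 of 156 (18.1% of other genes). The count among the 1000 highest regions, 3 of 156 (1.92%, against 1.7% of other genes), was 0 among the 500 highest (1.01% of other genes). Among the 5000 highest it was 9 (5.77%, against 6.78%). With 1 replicate left out, the ranges were 33.97% to 35.9% for the share, 48.6 to 51.7 for the median, 0 to 1 for the count among the 1000 highest and 12.8 to 20.9 for summits per 100 kb of gene body. The smaller and larger windows and lists hold fewer and more regions by construction, and the cause of the other moves was not tested. Of the remaining alternatives none moved a result by over its limit. Uniqueness, collagen-repeat and gene body alternatives were added after seeing the data. No paired analysis was possible because both samples are of 1 group. Regions of low rank could not be told from background at the unknown depth.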
